A study of Mus musculus with 18 samples.

Results

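The cytosolic ribosomal protein genes encode the structural proteins of the 2 subunits of the ribosome that translates nuclear mRNAs. They were taken as every row whose gene symbol was Rpl, Rps or Rplp followed by a number, with or without the endings a, x, l or y, together with Rpsa. By this rule 81 of the 18838 genes listed at any time point were ribosomal protein genes, 49 of the large subunit and 32 of the small subunit. Of these, 79 passed a mean of at least 10 normalized counts at each time point and were tested. The other two, Rpl3l and Rpl32l, did not exceed 2.90 normalized counts in any library. Of the 81 genes, 79 were annotated as protein coding in GENCODE M21, whereas Rps4l and Rpl32l were annotated as processed pseudogenes. The genes lay on 19 chromosomes.

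The libraries were poly(A)-selected RNA from duodenal crypts of WT (Mtgr1+/+) mice and of mice labelled Mtgr1-/-, and from enteroids grown from such crypts. Enteroids are epithelial organoids grown in Matrigel with EGF, Noggin and R-spondin. MTGR1, encoded by Cbfa2t2, is a transcriptional corepressor and, by the study's description, the mutant mice lack it in the whole body. The mice were age-matched littermates of both sexes, aged 8 to 12 weeks. Each genotype was represented by 3 mice, and each mouse number had a library of fresh crypts (day 0), of enteroids 24 hours after plating (day 1) and of enteroids 72 hours after plating (day 3), which makes 18 libraries. The values are gene counts divided by 1 factor per library within a time point, called normalized counts below, so that levels compare within a time point and not between time points.

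Ribosomal proteins are made in amounts matched to the ribosomal RNAs, and cells that grow and divide quickly, such as the progenitors at the base of intestinal crypts, need many ribosomes. Their mRNAs begin with a cytosine followed by a run of pyrimidines, the 5′ terminal oligopyrimidine (TOP) tract, through which their translation and stability respond to mTOR signaling and to the RNA-binding protein LARP1. Promoters of the genes often hold sites for ETS family factors, SP1 and YY1 near a pyrimidine-rich start. Several members have a second gene copy of restricted or stress-related expression, and many have processed pseudogenes that resemble the parent mRNA closely.

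The targeted gene did not mark the genotype in these libraries. Cbfa2t2 ranged from 523 to 614 normalized counts in WT crypts and from 466 to 697 in crypts labelled Mtgr1-/-, and was not past the test at any time point (adjusted p = 0.917, 0.0557 and 0.686 in crypts, day 1 and day 3, limma). Which part of the gene the allele removes was not checked here, so the libraries are called by their label throughout. Olfm4, a stem cell gene, ranged from 25673 to 33032 in WT crypts and from 133 to 512 in labelled crypts, and it separated the labels at all 3 time points. The epithelial markers were present in every library, and 5 of the 9 that had a row (of 10) were higher and 2 lower in labelled enteroids on each of the 2 days. The 2 lower were the stem cell gene Lgr5 (−3.40 at day 1 and −4.47 at day 3, log2 scale) and Lyz1 (−5.38 and −5.36). Higher on both days were Krt20 (2.26 and 2.68), Vil1 (1.18 and 1.05) and Fabp1 (1.21 and 1.72). All 4 duodenal markers were higher in labelled enteroids at both days, and the only ileal marker tested, Slc10a2, was higher at day 3 (2.04 on the log2 scale, adjusted p = 0.000116, limma). Summed immune markers reached 11871 normalized counts in 1 WT crypt library against 429 to 1437 in labelled crypts. At day 1 they summed to 79.1 to 362 in WT against 31.5 to 773 in labelled enteroids. At day 3 the sums were 23.3 to 59.05 in WT against 18.2 to 911 in labelled enteroids. The highest of these was in labelled mouse 3, where Lyz2 alone had 637. No immune marker was past the test at any time point. Stromal and vascular markers summed to at most 288, with Col1a2, Col3a1 and Des without a row in the enteroid tables, and nerve and muscle markers to at most 8.06. The part of these differences in the results below was not tested, and in such bulk samples fewer cells of a type and less RNA per cell cannot be told apart.

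To show what the promoters of these genes have in common, 300 bases around the RefSeq start (250 before and 50 after, GRCm38.p6) were read for the 60 members that had an entry, out of 27025 genes with one. A run of at least 8 pyrimidines within 50 bases of the start was found in 49 of the 60 members (81.7%) and in 35.7% of all genes. A run of at least 10 was found in 66.7% of members and in 18% of all genes. The letters CCGGAAG (an ETS motif, either strand) were found in 23 members (38.3%) and in 9.14% of all genes, GGGCGG (SP1) in 58.3% and 35.9%, AAGATGG (YY1) in 15.0% and 6.46%, and TATAAA in 11.7% and 14.2%. The E-box CACGTG, bound by MYC and its partners, was found in 8.33% of members and in 7.24% of all genes. Hits of different motifs may share letters, and a match is a description of the sequence only.

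The sequences of 8 members the results turn on are given here, 70 bases before to 25 bases after the start and 5′ to 3′ on the gene's strand, with capitals marking pyrimidine runs of at least 8 and the ETS, SP1, YY1 and TATAAA letters. The first 3 are members with large falls, and the following 2 pairs are a gene and its second copy, and Rpl34 is the member whose count turned on a pseudogene. The RefSeq start used for Rps2 lies well inside the GENCODE span of the gene given below. The TATAAA letters marked in Rps2 and Rpl36a lie after the start used, not before it.
Rps2 (chr17:24719993-24720087, plus strand): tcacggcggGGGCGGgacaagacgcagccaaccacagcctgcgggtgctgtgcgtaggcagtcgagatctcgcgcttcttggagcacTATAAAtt
Rps13 (chr7:116334166-116334260, minus strand): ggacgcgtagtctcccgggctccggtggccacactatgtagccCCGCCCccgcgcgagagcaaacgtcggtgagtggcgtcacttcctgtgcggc
Rps6 (chr4:86857343-86857437, minus strand): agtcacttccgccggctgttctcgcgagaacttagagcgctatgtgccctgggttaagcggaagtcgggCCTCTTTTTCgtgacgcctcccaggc
Rps27 (chr3:90213624-90213718, minus strand): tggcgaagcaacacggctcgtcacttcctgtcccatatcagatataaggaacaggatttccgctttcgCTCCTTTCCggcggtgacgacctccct
Rps27l (chr9:66946016-66946110, plus strand): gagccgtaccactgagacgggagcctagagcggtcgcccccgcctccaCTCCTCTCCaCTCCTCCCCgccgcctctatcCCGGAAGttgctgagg
Rpl36a (chrX:134585584-134585678, plus strand): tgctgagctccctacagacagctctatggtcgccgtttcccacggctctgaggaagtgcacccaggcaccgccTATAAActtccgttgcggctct
Rpl36al (chr12:69184043-69184137, minus strand): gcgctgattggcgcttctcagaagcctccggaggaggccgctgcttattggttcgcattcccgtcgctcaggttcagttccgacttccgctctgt
Rpl34 (chr3:130730374-130730468, minus strand): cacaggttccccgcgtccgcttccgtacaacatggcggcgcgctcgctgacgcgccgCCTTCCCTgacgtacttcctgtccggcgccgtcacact

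Ribosomal protein mRNA was similar in the crypts of both groups and lower in labelled enteroids. In crypts these genes took 3.33%, 3.25% and 2.97% of the library total in WT mice 1 to 3 and 3.39%, 3.995% and 2.87% in labelled mice 1 to 3. The 2 groups overlapped. At day 1 they took 4.43%, 4.796% and 4.55% in WT and 2.36%, 3.16% and 2.38% in labelled libraries. At day 3 they took 5.23%, 6.10% and 5.55% in WT and 3.86%, 3.06% and 4.001% in labelled libraries. Every labelled enteroid library lay below every WT enteroid library of its day. The means were 4.59% ± 0.188 (SD, n = 3) and 2.64% ± 0.459 (SD, n = 3) at day 1, and 5.63% ± 0.441 (SD, n = 3) and 3.64% ± 0.508 (SD, n = 3) at day 3.

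**Figure D1:**
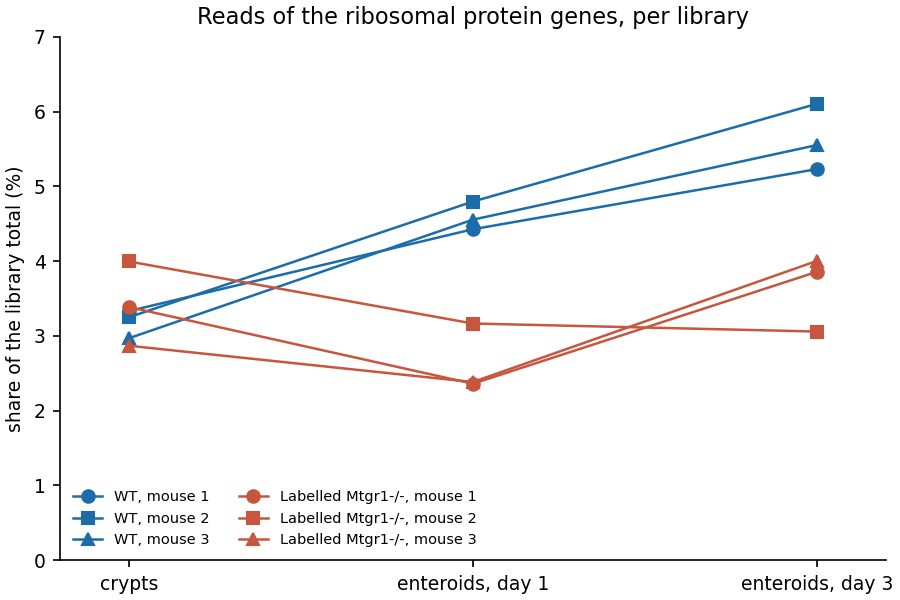
Share of each library's total taken by the ribosomal protein genes (vertical axis, percent) in crypts and in enteroids at day 1 and day 3, with 1 line for each mouse number, WT in blue and labelled Mtgr1-/- in red. Between crypts and day 1 the WT shares rise to between 4.43% and 4.796%, and labelled shares fall to between 2.36% and 3.16%. The lines of labelled mice 1 and 2 cross the WT lines there, while that of labelled mouse 3 lies below them throughout.

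Because a share is taken within 1 library, it can be followed within a mouse number without the factor that separates the time points. From crypts to day 1 the share was multiplied by 1.33, 1.48 and 1.53 in WT mice 1 to 3 and by 0.697, 0.792 and 0.831 in labelled mice 1 to 3. WT shares thus rose in 3 of 3 mice and labelled shares fell in 3 of 3. Gene by gene, 78 of the 79 tested members had a higher share at day 1 than in crypts in all 3 WT mice, a pattern shown by 51.2% of all genes. In labelled mice 75 of 79 had a lower share in all 3, as did 44.1% of all genes. From day 1 to day 3 the summed share was multiplied by 1.18, 1.27 and 1.22 in WT, and 75 of 79 members rose in all 3 WT mice against 36.8% of all genes. Labelled mice differed among themselves over this interval, with factors of 1.63, 0.966 and 1.68, and 16 of 79 members (28.2% of all genes) rose in all 3. Labelled mouse 2 had the highest labelled share in crypts and at day 1 and the lowest at day 3.

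In crypts no member passed the test between genotypes. The median log2 fold change over the 79 members (labelled over WT) was 0.06, against 0.01 over all genes tested, with 68 values above 0 and 11 below. Neither direction had a call by limma (adjusted p at or above 0.118), whereas 1.58% of all genes were called higher and 3.15% lower. At an unadjusted p under 0.05 there were 2 members higher and 0 lower, and edgeR and DESeq2 on whole reads called 0 in either direction. With sample quality weights 2 members were higher and 1 lower.

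At day 1 the genes fell nearly as a whole. Of the 79 tested members, 75 (94.9%) were lower in labelled libraries and 0 higher, where 28.9% of all genes were called lower and 30.0% higher (limma, adjusted p under 0.05). No member was higher at an unadjusted p under 0.05 or by edgeR or DESeq2. The median log2 fold change was −0.49, so that the level dropped by 28.9%, with the middle of the members between −0.57 and −0.41. The median over all genes was −0.01. In 76 of the 79 members the 3 labelled libraries all lay below the 3 WT libraries, as they did for 33.9% of all genes. The large subunit (45 of 47 lower, median −0.49) and the small subunit (30 of 32 lower, median −0.50) had similar values.

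At day 3 the fall remained. Of 79 members, 66 (83.5%) were lower and 0 higher, where 29.1% of all genes were lower and 29.9% higher. No member was higher at an unadjusted p under 0.05 or by edgeR or DESeq2. The median log2 fold change was −0.45, so that the level dropped by 26.6%, against 0.00 over all genes. Labelled libraries lay below WT libraries without overlap in 69 members and in 34.2% of all genes. In the large subunit 38 of 47 were lower (median −0.44), and in the small subunit 28 of 32 (median −0.45). Across the 79 members the day 1 and day 3 log2 fold changes had Pearson's r = 0.822 and Spearman's rho = 0.701, a description over genes measured in the same mouse numbers.

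The size of the fall depended on the scale. When each library was divided by its own total, the median of all genes moved to −0.33 at day 1 and −0.20 at day 3, and the members' median to −0.81 and −0.65. Relative to all genes on that scale the members thus remained lower at both days.

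**Figure D2:**
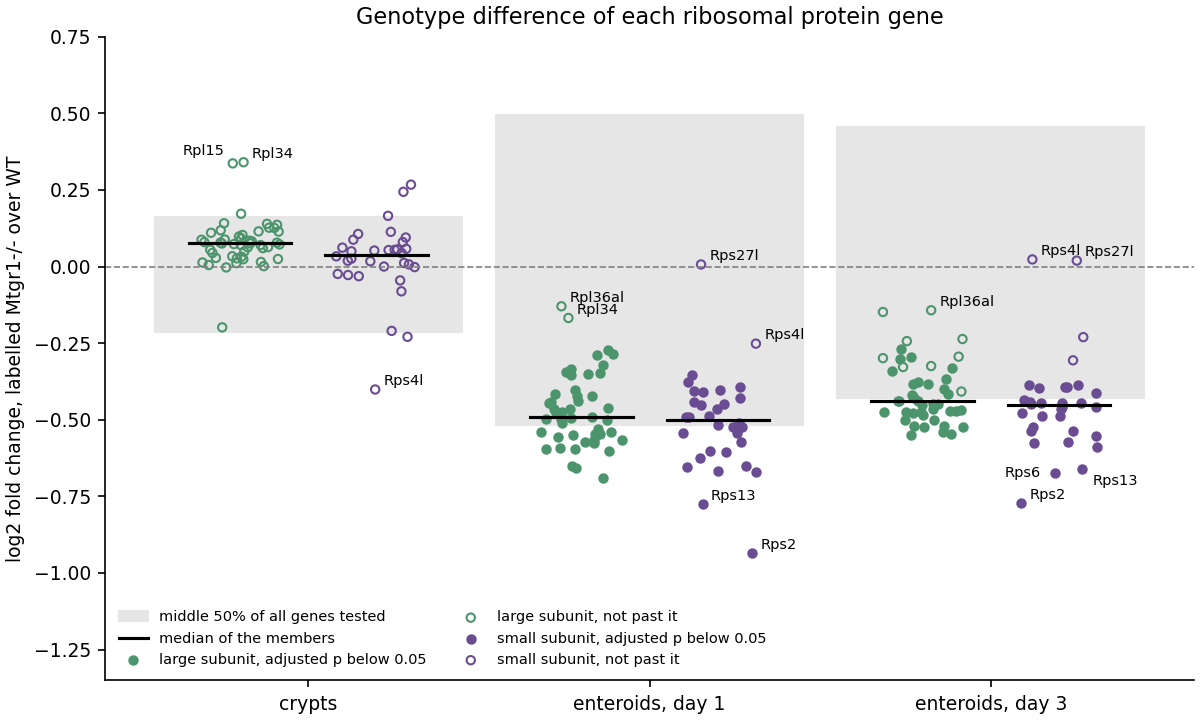
Log2 fold change (labelled Mtgr1-/- over WT) of each of the 79 tested members in crypts and in enteroids at day 1 and day 3, with the large subunit in green and the small subunit in purple, filled where the limma adjusted p was below 0.05, black lines at the median of each subunit's members and grey boxes over the middle 50% of all genes tested. The points sit around 0.06 in crypts and around −0.49 and −0.45 in enteroids, with Rps2 lowest and Rps27l near 0.

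The difference between genotypes itself changed on plating. Its change from crypts to day 1 passed the test in 71 of 79 members, each toward lower values in labelled libraries. The median change was −0.55 on the log2 scale (21.1% of all genes changed downward and 20.3% upward). The test was limma on the 18 libraries together, treating each mouse within its genotype as random. From crypts to day 3 the change passed in 62 members, with a median of −0.49 (15.1% of all genes downward and 16.5% upward). No member changed upward in either, at an unadjusted p under 0.05 as well. From day 1 to day 3 no member changed, 0 of them at an unadjusted p under 0.05, where 0.0247% of all genes changed upward and 0.00823% downward. The most negative changes to day 1 were those of Rps21 (−0.77), Rpl27a (−0.77) and Rpl12 (−0.77), and to day 3 those of Rps6 (−0.67), Rpl14 (−0.66) and Rpl39 (−0.65). These counts leaned on single mice. Without mouse 1 or 3 of the WT or mouse 1 of the labelled group, 45, 44 and 44 members were called to day 1. To day 3 the calls fell to 33, 2 and 8 without WT mouse 1, 2 or 3 and to 38 and 30 without labelled mouse 1 or 2.

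Among small subunit proteins the lowest value was that of Rps2 (chromosome 17, 24718116 to 24721929), which encodes uS5, a protein near the mRNA entry channel. In crypts Rps2 had 29125, 30043 and 23292 normalized counts in WT and 30730, 17907 and 22991 in labelled mice 1 to 3. At day 1 it had 44016, 45335 and 45807 in WT and 29794, 18510 and 23666 in labelled libraries. The groups overlapped in crypts and separated at day 1. The log2 fold change at day 1 was −0.94 ± 0.17 (SE, n = 3 per group, limma adjusted p = 0.00283), so that the level dropped by 47.7%. At day 3 it had 43821, 54890 and 51437 in WT and 40142, 18656 and 33135 in labelled libraries, a difference of −0.77 ± 0.26 (SE, limma adjusted p = 0.0327). That call was lost without WT mouse 1, 2 or 3 (adjusted p = 0.0535, 0.104 and 0.0862, limma). Labelled mouse 2 had the lowest Rps2 of its group at every time point, while labelled mouse 1 had the highest.

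Rps13 (chromosome 7, 116331505 to 116334195), which encodes uS15, had the lowest adjusted p at day 1. It had 8223, 8878 and 8487 normalized counts in WT and 5574, 4650 and 4776 in labelled libraries at day 1. All labelled values lay far below WT, by −0.77 ± 0.10 on the log2 scale (SE, limma adjusted p = 0.000551). At day 3 the values were 8862, 11593 and 10171 in WT and 7919, 4733 and 7069 in labelled libraries, a difference of −0.66 ± 0.19 (SE, limma adjusted p = 0.0172, and 0.0684 without WT mouse 2). In crypts Rps13 was 6078, 6309 and 5863 in WT and 5838, 4924 and 5053 in labelled libraries (adjusted p = 0.310, limma), where the groups were already apart by a narrow gap.

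Rps6 (chromosome 4, 86854660 to 86857412), which encodes the protein phosphorylated by S6 kinase downstream of mTOR, showed the lowest adjusted p at day 3. Its crypt values were 14334, 14130 and 13035 in WT and 13248, 16638 and 11978 in labelled libraries. On day 3 Rps6 reached 24333, 28177 and 25791 in WT and 16482, 15057 and 17522 in labelled libraries. The groups thus overlapped in crypts and were well separated at day 3, where the difference was −0.67 ± 0.10 (SE, limma adjusted p = 0.000939). At day 1 it was −0.65 ± 0.11 (SE, adjusted p = 0.0016, limma).

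**Figure D3:**
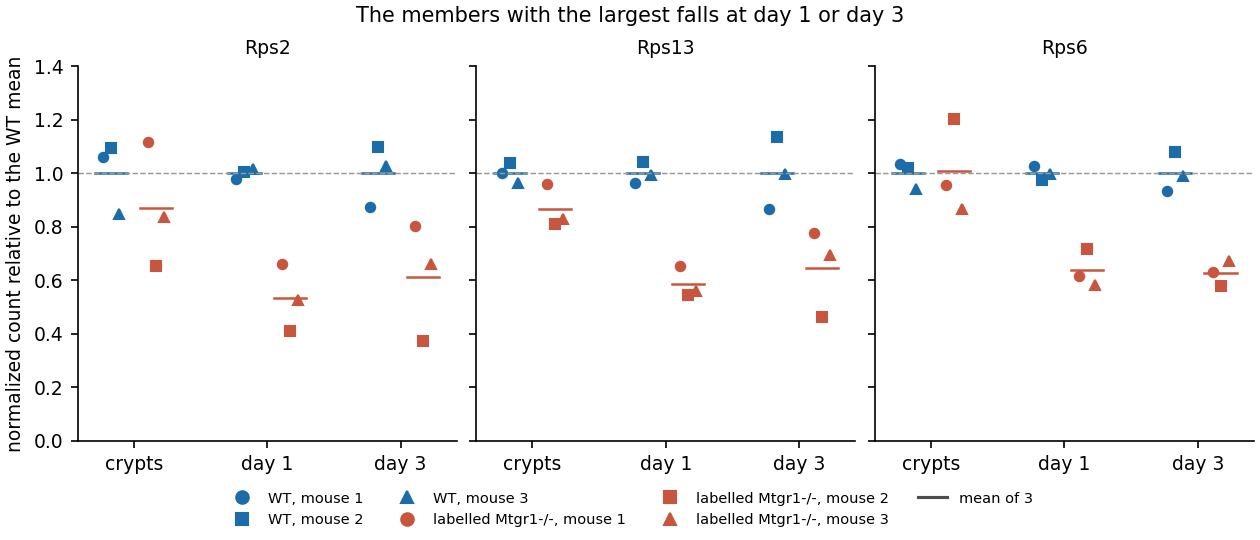
Normalized counts of Rps2, Rps13 and Rps6 in each library relative to the WT mean of the same time point (vertical axis), by time point, with WT in blue, labelled Mtgr1-/- in red, 1 symbol for each mouse number and lines at the mean of 3 libraries. All labelled enteroid points lie below the WT points, and for Rps2 labelled mouse 2 is the lowest at each time point.

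Other small subunit genes with large falls were Rps15a (−0.67 ± 0.09 at day 1 and −0.59 ± 0.09 at day 3, SE), Rps21 (−0.67 ± 0.13 and −0.54 ± 0.13) and Rps4x (−0.60 ± 0.11 and −0.58 ± 0.11), all past the limma test at both days. Rpsa, which encodes uS2 and is also known as the laminin receptor precursor, had a positive value in crypts and a negative one in enteroids. It had 26065, 25406 and 23052 normalized counts in WT crypts and 28512, 33961 and 26182 in labelled crypts, each labelled library above each WT library but not past the test (adjusted p = 0.421, limma). At day 1 it had 35070, 36527 and 36323 in WT and 23675, 29268 and 24318 in labelled libraries (−0.49 ± 0.12, SE, limma adjusted p = 0.00968). At day 3 the difference of −0.31 ± 0.12 (SE) was not past the threshold (adjusted p = 0.054, limma). It was past it in 9 of 21 alternatives, and the adjusted p ranged from 0.00416 with quantile normalization to 0.172 without WT mouse 2.

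Of the large subunit, Rpl12, which encodes uL11 at the base of the stalk, had the largest fall at day 1. Rpl12 had 8057, 10452 and 9684 normalized counts in WT and 4226, 7525 and 6119 in labelled libraries at day 1. The labelled libraries were all lower, with a wide spread between mice in both groups. The difference was −0.69 ± 0.21 (SE, limma adjusted p = 0.0213), and it was lost without WT mouse 2 or 3 (adjusted p = 0.0731 and 0.0611, limma). At day 3 Rpl12 had 9792, 14128 and 13082 in WT and 8742, 7813 and 11343 in labelled libraries, and the groups overlapped (−0.41 ± 0.17, SE, adjusted p = 0.0742, limma). It was past the threshold without WT mouse 1 or labelled mouse 3 (adjusted p = 0.0276 and 0.0254, limma).

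The acidic stalk, which binds the translation factors that hydrolyze GTP, is formed by the products of Rplp0, Rplp1 and Rplp2. Rplp0 had 41895, 44017 and 42701 normalized counts in WT and 27919, 35488 and 30239 in labelled libraries at day 1. Rplp1 had 19419, 21269 and 20734 in WT and 12823, 17423 and 15933 in labelled libraries. Rplp2 had 8238, 9463 and 8929 in WT and 5275, 7484 and 6302 in labelled libraries. In each of the 3 genes labelled mouse 1 was lowest and no labelled library reached a WT library. The log2 differences at day 1 were −0.46 ± 0.13 for Rplp0, −0.42 ± 0.13 for Rplp1 and −0.49 ± 0.13 for Rplp2 (SE, limma adjusted p = 0.0152, 0.0243 and 0.0143). Leaving out single mice raised these to at most 0.0644, 0.0772 and 0.0534, with the calls lost without WT mouse 3 or labelled mouse 1 or 3 for Rplp0, WT mouse 2 or 3 or labelled mouse 1 for Rplp1, and WT mouse 2 for Rplp2. At day 3 Rplp0 (−0.37 ± 0.13) and Rplp2 (−0.33 ± 0.12) were past the limma test (adjusted p = 0.0377 and 0.0368) but not without any one of WT mouse 2, WT mouse 3, labelled mouse 1 or labelled mouse 2. Rplp1 was −0.32 ± 0.14 (adjusted p = 0.0799, limma).

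Rpl5 and Rpl11, whose proteins assemble with 5S RNA and, when unassembled, bind MDM2, fell at both days. Rpl5 had 10330, 10087 and 9211 normalized counts in WT and 6421, 7472 and 5817 in labelled libraries at day 1. Rpl11 had 13610, 14302 and 14354 in WT and 9260, 10961 and 9791 in labelled libraries. The groups were separate for both genes. The log2 differences at day 1 were −0.59 ± 0.11 and −0.50 ± 0.10 (SE, limma adjusted p = 0.00291 and 0.00323), and at day 3 −0.42 ± 0.09 and −0.43 ± 0.11 (SE, limma adjusted p = 0.00413 and 0.0096). Rpl3, which lies close to the peptidyl transferase center, had 29906, 30106 and 29488 in WT and 17876, 21810 and 17392 in labelled libraries at day 1 (−0.66 ± 0.12, SE, limma adjusted p = 0.00242), and Rpl10, a late-joining protein, 23734, 22504 and 21699 against 18699, 19915 and 17133 (−0.29 ± 0.10, SE, limma adjusted p = 0.0428). The Rpl10 call was lost without any single mouse except labelled mouse 2 (adjusted p up to 0.134, limma).

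The members not called lower at day 1 were few. Only Rpl34, Rpl36al, Rps27l and Rps4l were not past the test at day 1, and 3 of these are second copies of other members. At day 3 these 4 and 9 others were not past it, namely Rpl12, Rpl15, Rpl18, Rpl19, Rpl27, Rpl36, Rplp1, Rps9 and Rpsa, with log2 fold changes from −0.41 to −0.23.

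Rps27l (chromosome 9, 66946086 to 66949516), a p53-responsive copy of Rps27, had 2999, 2605 and 2692 normalized counts in WT and 2828, 2848 and 2649 in labelled libraries at day 1, and 2422, 2643 and 2749 against 2486, 2762 and 2669 at day 3. The groups overlapped at both days, with log2 differences of 0.01 ± 0.09 and 0.02 ± 0.08 (SE, limma adjusted p = 0.951 and 0.848). Rps27 (chromosome 3, 90212522 to 90213651) had 7111, 6967 and 6584 in WT and 4550, 5344 and 4585 in labelled libraries at day 1, and 8873, 10254 and 9099 against 6346, 6358 and 7459 at day 3. Its groups were apart at both days (−0.52 ± 0.09 and −0.49 ± 0.10, SE, limma adjusted p = 0.00237 and 0.00358). On the library total scale Rps27l was lower at day 1 (−0.31, adjusted p = 0.0227, limma), about as far as the median of all genes on that scale.

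Rpl36al (chromosome 12, 69182731 to 69184083) is a copy of the X-linked Rpl36a whose longest annotated transcript has 1 exon. It had 4255, 3992 and 3864 normalized counts in WT and 3799, 3804 and 3468 in labelled libraries at day 1, and 3565, 3956 and 3921 against 3405, 3433 and 3517 at day 3. Each labelled library was lower, by a small margin (−0.13 ± 0.08 and −0.14 ± 0.07, SE, limma adjusted p = 0.204 and 0.128). Rpl36a (chromosome X, 134585654 to 134588062) had 5174, 5095 and 4598 in WT and 3257, 3767 and 2882 in labelled libraries at day 1 (−0.59 ± 0.11, SE, limma adjusted p = 0.00309). At day 3 it had 6275, 7199 and 6287 against 4569, 4063 and 4915 (−0.55 ± 0.10, SE, limma adjusted p = 0.0021).

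Rps4l (chromosome 6, 148354656 to 148355598), an intronless copy of the X-linked Rps4x annotated as a transcribed processed pseudogene, varied between labelled mice. In crypts it had 889, 1075 and 916 normalized counts in WT and 446, 1016 and 838 in labelled mice 1 to 3. Labelled mouse 1 was the low library again at day 1 (475, against 1022 and 960 in the other labelled mice and 860 to 1020 in WT) and at day 3 (457, against 962 and 951, and 624 to 847 in WT). At no time point did the groups differ (adjusted p = 0.522, 0.45 and 0.948, limma). Without labelled mouse 1 it was higher at day 3 (adjusted p = 0.0432, limma). Rps4x had 26078, 24750 and 24239 in WT and 15898, 18475 and 15213 in labelled libraries at day 1.

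**Figure D4:**
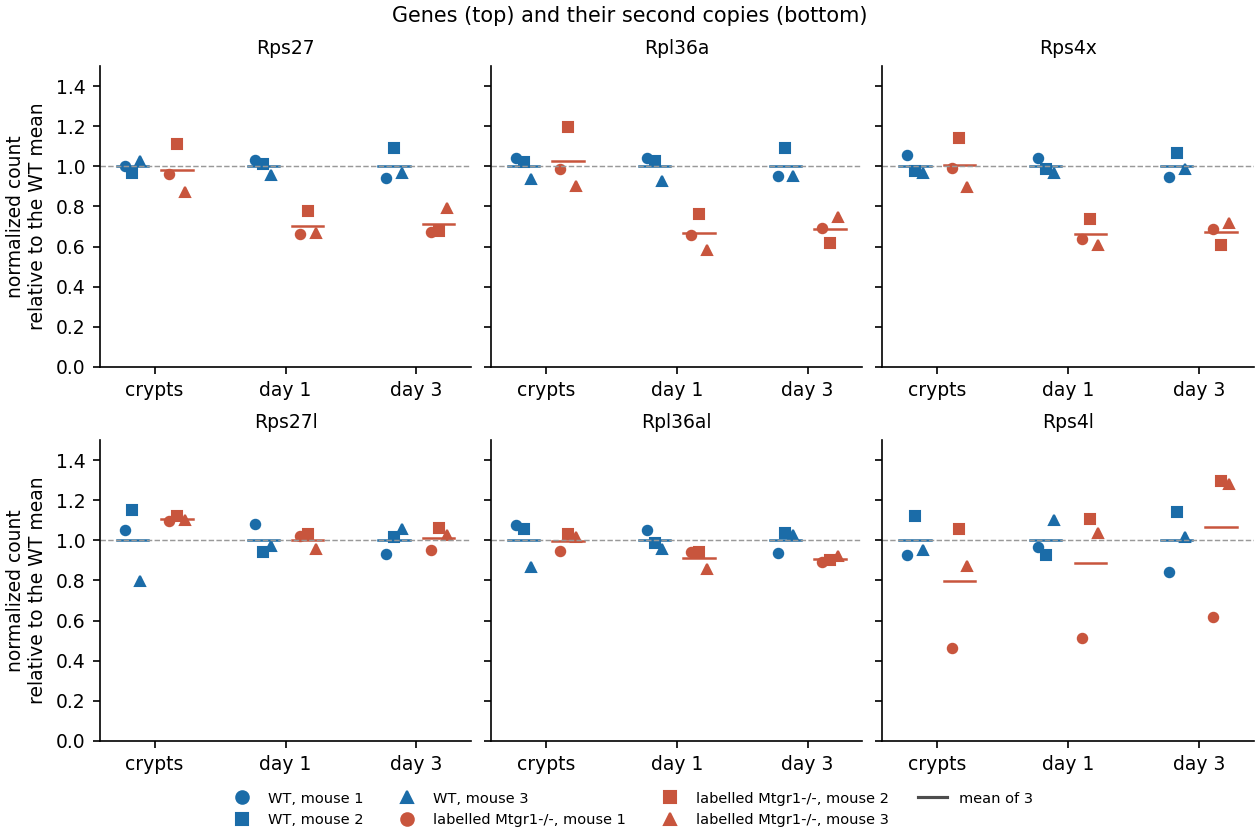
Normalized counts relative to the WT mean of the same time point (vertical axis) for Rps27, Rpl36a and Rps4x (top) and their copies Rps27l, Rpl36al and Rps4l (bottom), in crypts and at day 1 and day 3, with WT in blue, labelled Mtgr1-/- in red, 1 symbol for each mouse number and lines at the mean of 3 libraries. The labelled enteroid points fall well below 1 in the top row, stay near 1 for Rps27l and Rpl36al, and lie low in labelled mouse 1 alone for Rps4l.

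Of the remaining second copies, Rpl3l did not exceed 2.83 normalized counts in any library, and no value is given for Rpl10l and Rpl39l. Rpl39, whose protein lines the exit tunnel, fell by 0.53 on the log2 scale at day 1 (SE 0.11, limma adjusted p = 0.00376) and by 0.52 at day 3 (SE 0.09, limma adjusted p = 0.00152).

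Rpl34 (chromosome 3, 130726831 to 130730398) had the largest positive crypt value, and the count depended on a pseudogene. In crypts Rpl34 had 4378, 4482 and 4111 normalized counts in WT and 5359, 6092 and 5014 in labelled libraries, so that labelled libraries were all higher (0.34 ± 0.10, SE, adjusted p = 0.118, limma). At day 1 it had 6206, 5585 and 5655 in WT and 5060, 5703 and 4790 in labelled libraries, and the groups overlapped (−0.17 ± 0.10, SE, adjusted p = 0.162, limma). Its processed pseudogene Rpl34-ps1 (chromosome 6, 71124610 to 71124963, 354 bases, 1 exon) had 1287, 1084 and 974 normalized counts in WT crypts and 1491, 1603 and 1656 at day 1. It had 0 in all 6 labelled libraries of those time points. At day 3 it had 1580, 1672 and 1733 in WT against 0, 0 and 6.74 in labelled libraries. Whether the mice of the 2 groups differ in sequence at this locus was not tested.

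With the pseudogene's values added to those of the parent gene, the crypt difference of Rpl34 was 0.01 ± 0.10 (SE, adjusted p = 0.972, limma). The summed values at day 1 were 7697, 7188 and 7311 in WT and 5060, 5703 and 4790 in labelled libraries, a difference of −0.52 ± 0.09 (SE, limma adjusted p = 0.00228). At day 3 it was −0.47 ± 0.09 (SE, limma adjusted p = 0.00267). Both lay close to the members' median, and with named pseudogenes added 76 members were lower at day 1 and 67 at day 3. The other genes with a named pseudogene row were Rpl14, Rpl17, Rps6 and Rps19, and none of their calls changed. Other processed pseudogenes, without a parent's name in their symbol, were not summed, and how the 50-base reads were divided among near-identical copies was not tested.

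**Figure D5:**
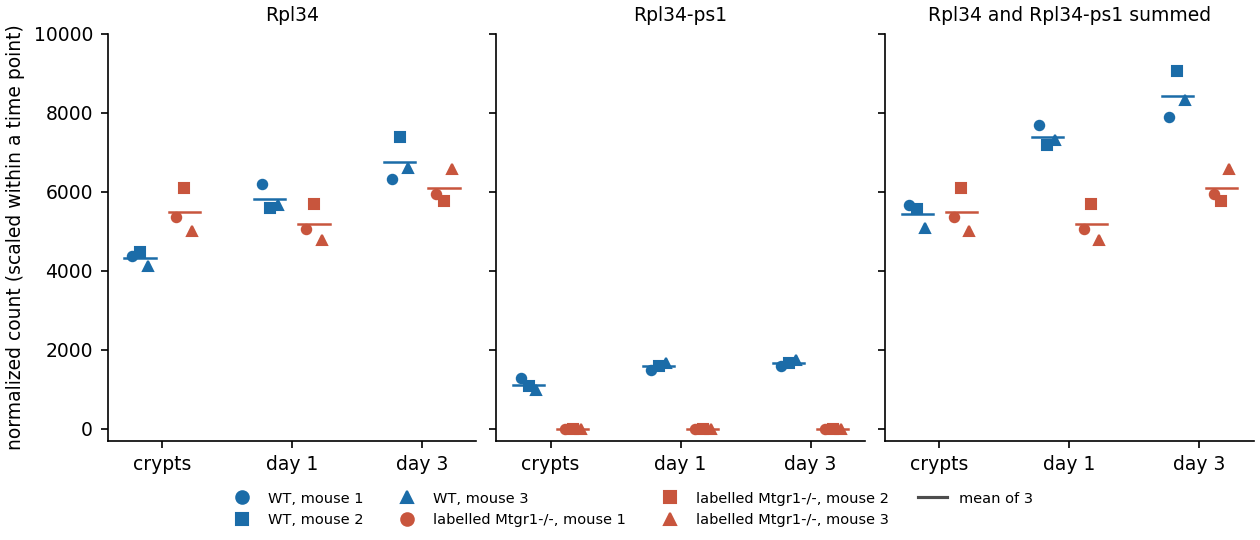
Normalized counts (vertical axis, scaled within a time point) of Rpl34, of its pseudogene Rpl34-ps1 and of their sum in each library of crypts, day 1 and day 3, with WT in blue, labelled Mtgr1-/- in red, 1 symbol for each mouse number and lines at the mean of 3 libraries. The pseudogene lies at or near 0 in the labelled libraries, and the summed counts overlap in crypts and separate at day 1 and day 3.

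To ask which members departed from the others, each library was also scaled to the median of its own members, a scale chosen after the data were seen. The adjustment of p was over all genes tested. With it, 3 members were called higher relative to the rest at day 1, namely Rps27l (0.50 ± 0.12), Rpl36al (0.36 ± 0.11) and Rpl34 (0.32 ± 0.11, SE, limma adjusted p = 0.00555, 0.0209 and 0.0274). Their unadjusted p-values were 0.0024, 0.0118 and 0.0162 (limma). None was lower, and 0 were at an unadjusted p under 0.05. At day 3, 2 were higher, Rps27l (0.46 ± 0.13, SE, limma adjusted p = 0.0122) and Rpl34 (0.29 ± 0.11, SE, limma adjusted p = 0.0403), and again 0 lower with 0 at an unadjusted p under 0.05. Rpl34 is counted here without its pseudogene. With Rpl34-ps1 added, its fall of −0.52 at day 1 and −0.47 at day 3 on the original scale lay beside the members' medians of −0.49 and −0.45. On the scale set by the members 53.5% of all genes were higher and 11.8% lower at day 1, and 50.7% higher and 9.67% lower at day 3. With so many genes called, the adjustment was lenient for the members. An adjustment over the members alone was not made, so these calls do not decide which members departed from the others. Rps2 stood −0.44 ± 0.23 below the members' median at day 1 (SE, adjusted p = 0.122, limma), which did not pass the test.

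Single mice standing apart at all time points were no more frequent among the members than among all genes. In 2 of the 79 members (2.53%), Rps4l and Rps2, a mouse differed from the other two of its group by at least 0.5 on the log2 scale in the same direction at all 3 time points, as in 4.21% of all genes tested. Labelled mouse 1 stood −1.05, −1.06 and −1.06 from the others in Rps4l in crypts, at day 1 and at day 3. Labelled mouse 2 stood −0.57, −0.52 and −0.97 from the others in Rps2, and labelled mouse 1 stood 0.60, 0.51 and 0.69 from them.

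The ribosomal proteins whose symbols do not follow the pattern gave mixed values. Of 6, 4 fell and 0 rose at day 1 (median log2 fold change −0.45), while 3 fell and 0 rose at day 3 (median −0.32), against all-gene medians near 0. Of all genes 28.9% fell and 30.0% rose at day 1, and 29.1% fell and 29.9% rose at day 3. Rps3a1 had 24929, 23555 and 23028 normalized counts in WT and 15752, 17604 and 14541 in labelled libraries at day 1 (−0.58 ± 0.11, SE, limma adjusted p = 0.00271). Rack1, a scaffold on the head of the small subunit, was −0.55 ± 0.12 (SE, limma adjusted p = 0.00522). Fau, which encodes a small subunit protein fused to a ubiquitin-like protein, was 0.17 ± 0.08 at day 1 and 0.07 ± 0.12 at day 3 (SE, adjusted p = 0.105 and 0.610, limma) and was not past the test.

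Over all genes, 28.9% fell and 30.0% rose at day 1, and 29.1% fell and 29.9% rose at day 3. Of 21 genes of translation factors and other products reported to have TOP mRNAs, 13 fell and 0 rose at day 1. The counts at day 3 were also 13 and 0 (median log2 fold changes −0.43 and −0.36). The lowest values at day 1 were those of Gas5, a noncoding snoRNA host (−1.33 ± 0.36), Nap1l1, a histone chaperone (−1.24 ± 0.18), and Npm1, a nucleolar protein (−1.07 ± 0.17, SE, limma adjusted p = 0.0144, 0.00109 and 0.00133). Eef1a1, which delivers aminoacyl-tRNA to the ribosome, was −0.16 ± 0.20 at day 1 (adjusted p = 0.514, limma).

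Among 16 tested chaperones and assembly factors of ribosomal proteins, 10 fell and 1 rose at day 1, while 9 fell and 2 rose at day 3 (medians −0.46 and −0.37). The shares over all genes were 28.9% lower and 30.0% higher at day 1, and 29.1% and 29.9% at day 3. Rrs1, which brings the 5S particle with Rpl5 and Rpl11 into the large subunit, had 1247, 1251 and 1227 normalized counts in WT and 515, 734 and 394 in labelled libraries at day 1 (−1.23 ± 0.20, SE, limma adjusted p = 0.0017). Grwd1, the chaperone of Rpl3, was −1.22 ± 0.18 (SE, limma adjusted p = 0.000994), and Tsr2, the chaperone of Rps26, −0.99 ± 0.16 (SE, limma adjusted p = 0.00135). Sbds, which acts in the release of Eif6 from the large subunit, was higher, by 0.50 ± 0.11 at day 1 and 0.67 ± 0.10 at day 3 (SE, limma adjusted p = 0.00684 and 0.000926).

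Genes of TOP mRNA control and of promoter factors had calls in both directions, where at day 1 the calls over all genes were 30.0% higher and 28.9% lower, and on day 3 they were 29.9% and 29.1%. Of 14 control genes, 6 rose and 4 fell at day 1, while 2 rose and 3 fell at day 3. Larp1 had 8181, 7697 and 8609 normalized counts in WT and 6051, 6201 and 5397 in labelled libraries at day 1 (−0.47 ± 0.09, SE, limma adjusted p = 0.00327), while Mtor was 0.66 ± 0.11 (SE, limma adjusted p = 0.00183). Of 10 promoter factors, 3 rose and 3 fell at day 1, while 3 rose and 4 fell at day 3. Myc had 2469, 2517 and 2575 in WT and 1494, 1753 and 1611 in labelled libraries at day 1 (−0.64 ± 0.09, SE, limma adjusted p = 0.000734). Its antagonists Mxd1 (1.60 ± 0.21) and Mxi1 (1.51 ± 0.19, SE, limma adjusted p = 0.000659 and 0.000552) were higher, as was their partner Max. Of 10 genes of ribosome quality control, 2 were higher and 1 lower at each of day 1 and day 3. In crypts none of these lists had a gene past the test in the limma fit.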

How the data were processed

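The authors trimmed single-end 50-base reads from a stranded poly(A) kit with fastp 0.20.0 and quantified them with Salmon 1.3.0 against the GENCODE M21 decoy transcriptome. Gene counts were then normalized with DESeq2 1.26.0 within each time point. The deposited values are a signal, gene counts over 1 size factor per library, and columns of the authors' own comparisons (mean, fold change with its error, statistic and p-values) were not used. In 16 of 18 libraries 100% of values came out as whole reads (tolerance 0.1), 22035316 to 28621990 per library. WT crypt mouse 2 and labelled day 3 mouse 2 were not converted to reads and stayed out of the edgeR 4.0.16 and DESeq2 1.42.0 alternatives. Their values were not shown to be other than whole reads.

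Log2(normalized count + 1) of genes with a mean of at least 10 was compared in 3 against 3 libraries per time point with limma 3.58.1 (R 4.3.3, trended eBayes, Benjamini-Hochberg over all genes tested, 12980, 12587 and 12782, threshold 0.05, two-sided). The fits were tested on simulated data in which few genes changed, each by more than the members' median here. Recovery of changes of the members' size, with many genes changed, was not tested. Fold changes are on that log2 scale. Changes of the difference were fitted on the 18 libraries together, treating each mouse within its genotype as random (estimated correlation −0.00481, 12145 genes). Same-numbered mice deviated together in crypts (correlations 0.0764, 0.274 and 0.346) and at day 1 (0.116, 0.231 and 0.216). In crypts WT mouse 1 followed labelled mouse 2 more closely (0.2005) than labelled mouse 1. At day 3 the same-numbered correlations were near 0 (−0.00666, −0.00226 and −0.0156). The fits within a time point had no block for the mouse number, and results with that block are given below. P-values measure the spread between these mice. Positions are from GENCODE M21 (GRCm38) and promoters from RefSeq (GRCm38.p6). All 81 members matched by identifier.

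Members and lists were chosen with earlier results of these data known. The named members were, by rule, up to 5 largest falls and rises called per time point, up to 3 per change of the difference, the stalk genes, Rpl5, Rpl11, Rps6, Rpsa, the second copies beside their genes, and members whose call turned with a pseudogene, and up to 3 genes per list and direction. Members not past the test, Fau, Eef1a1, Olfm4 and Rpl15 were named after their values were seen. The values of 1 listed gene are not reported here.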

Additional observations from a re-analysis of the deposited data

Results flagged for a closer look

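The genotype difference of the members changed between time points, by a test of the change itself. It became lower from crypts to day 1 in 71 members and from crypts to day 3 in 62 (limma over 18 libraries). Over all genes the shares that became lower were 21.1% and 15.1%. Leaving out single mice took the member counts down to as few as 44 and 2. The named members with the most negative changes to day 1 were Rps21 (−0.77 ± 0.19), Rpl27a (−0.77 ± 0.19) and Rpl12 (−0.77 ± 0.30, SE, limma adjusted p = 0.00599, 0.0059 and 0.0485). To day 3 they were Rps6 (−0.67 ± 0.16), Rpl14 (−0.66 ± 0.18) and Rpl39 (−0.65 ± 0.16, SE, limma adjusted p = 0.00882, 0.0154 and 0.0108). In all 6 genes it was the difference of labelled from WT libraries that was lower in enteroids than in crypts, not the level itself. The Rpl12 change was lost without any single mouse except labelled mouse 2 (adjusted p up to 0.136). The changes to day 3 were lost for Rps6 without WT mouse 2 (adjusted p = 0.0523), for Rpl14 without WT mouse 2 or 3 (0.0642 and 0.0734) and for Rpl39 without labelled mouse 1 (adjusted p = 0.05).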

How the results depend on the processing

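Of the counts, medians and shares recomputed under each alternative, 255 kept their direction and their call or size, 7 values moved by more than the spread between replicates, 3 counts rose and 8 fell by over 1.5 times. Scaling each library to its own total, an alternative chosen after seeing the data, moved the members' median log2 fold change to −0.81 at day 1 and −0.65 at day 3 and called Rps27l lower at day 1 (−0.31), while the share of all called genes that were higher went from 50.9% to 28.3% and from 50.7% to 35.2%. Quantile normalization gave medians of −0.85 and −0.70. In crypts, sample quality weights called 2 members higher and 1 lower, and the number of all genes called ranged from 55 higher and 121 lower (without WT mouse 1) to 982 and 1118 (sample quality weights) against 205 and 409. By edgeR, which also left out WT crypt mouse 2, it was 52 and 157. Without the 10 most abundant other genes in the total, the WT shares were 3.598%, 4.96% and 6.13% in crypts, day 1 and day 3. Over 21 alternatives, between 64 and 78 members were lower at day 1, where the main fit called 75. For day 3 the lowest count was 49 and the highest 77, where the main fit called 66. Leaving out 1 mouse at a time, members higher at day 3 ranged from 0 to 1. Members whose difference changed from crypts to day 1 then ranged from 44 to 72, and from crypts to day 3 from 2 (without WT mouse 2) to 62. The cause of these changes was not tested.

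With the mouse number as a replicate block, 75 members were lower at day 1 and 64 at day 3, against 75 and 66 without it, and 69 and 60 changed from crypts to day 1 and day 3, against 71 and 62. Paired in this way the calls at day 3 were lost for Rpl10, Rplp0 and Rps2 (limma adjusted p = 0.0629, 0.0635 and 0.0509), and for Rps13 from crypts to day 1 (0.0925) and Rpl10 from crypts to day 3 (0.0527), and Rplp1 from crypts to day 1 was gained (0.0258). Levels near 0, as for Rpl3l, were below what these depths could compare.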
